A study of Mus musculus with 8 samples.

Results

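p53, encoded by Trp53, and 33 genes tied to it were followed in MC38, a mouse colon adenocarcinoma cell line. The 34 genes were chosen by symbol: Trp53 itself, its controllers Mdm2, Mdm4 and Ppm1d, and 30 genes known as p53 targets in cell cycle control, DNA repair, cell death and stress metabolism. All 34 were among the 29079 genes of the count table, and 33 were among the 14923 that passed a filter on low counts. The control line carries a CRISPR control (WT). The other (Piezo2 KO, here KO) was edited with the guide Piezo2-gRNA1 against Piezo2, a mechanically gated ion channel. Cells of each line received either no radiation or 30 Gy of X-rays in 1 fraction. The irradiated groups are labelled 60 hours, with 2 libraries in each of the 4 groups. The non-irradiated groups have no time label, so a difference in time of collection cannot be told apart from irradiation. The labels do not say whether the libraries of a group are separate cultures, so every p-value rests on the spread of these libraries alone, and that spread may be technical. Each line comes from 1 guide or control, and the labels do not say whether it is 1 clone, so a difference between KO and WT cannot be told apart from a difference between 2 separately grown lines.

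p53 is a transcription factor kept scarce by the ubiquitin ligase Mdm2 and its partner Mdm4. DNA breaks activate the kinases Atm and Chek2, which release p53 from Mdm2, and p53 then binds paired copies of a 10-base element to raise genes that stop the cycle, repair DNA or start apoptosis. Mdm2 and the phosphatase gene Ppm1d are themselves targets and close a negative feedback loop, so p53 activity often comes in pulses. No earlier time was sampled here and p53 activity was not measured, so the course of any response was not seen. MC38 cells have been reported to carry missense changes in Trp53. The allele in these libraries was not analysed here.

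Total counts per library ran from 10971004 to 19887180. Levels are CPM, read counts scaled to a common library total with TMM factors. Changes are log2 fold changes from edgeR with 2 libraries in each group, given ± SE. The SE was derived as the absolute log2 change divided by the square root of the edgeR F statistic. A gene is called higher or lower, and is said to have risen or fallen, at an edgeR adjusted p under 0.05. Piezo2 reads were 0 and 0 without and 3 and 9 with irradiation in WT, and 0 and 1 without and 7 and 12 with it in KO, so its mRNA did not separate the lines and does not check the knockout. The label calls MC38 epithelial. Of 12 epithelial and intestinal markers, 9 were in the table, Cdh1 had 39.2 to 78.5 CPM, and Krt18, Cldn3, Cldn4 and Cldn7 had no more than 3 reads in any library. Markers of other cells moved with irradiation. The 10 macrophage markers summed to 3.96 to 4.14 CPM without and 37.7 to 39.7 with irradiation in WT, and to 7.51 to 8.17 without and 55.2 to 64.4 with it in KO. Of these, 3 were tested (Cd68, Lyz2 and Ptprc) and rose in both lines. Over all tested genes 20.4 percent were called higher in WT and 21.1 percent in KO. Without irradiation Lyz2 had 1 and 0 reads in WT and 2 and 0 in KO, and Ptprc had 0 and 2 in WT and 0 and 0 in KO. These 2 genes passed the filter on low counts only through irradiated libraries, so their calls are no independent support for a rise. Nearly all of the sum was the lysosomal gene Cd68, and Adgre1, C1qa, C1qb, Tyrobp and Itgam had no more than 2 reads. The 8 fibroblast markers, mostly Col1a2, summed to 845 to 915, 1062 to 1168, 1082 to 1136 and 1578 to 1743 CPM, in the order of the macrophage sums. Of 7 tested, 5 rose in WT, and 5 rose and 1 fell in KO, with Lum at no more than 1 read. Postn, which rose in both lines, also passed the filter only through irradiated libraries. The 5 endothelial markers summed to between 1.77 and 13.1 CPM, and the 7 T and NK cell markers found to no more than 0.799. Their part in the results was not tested, and in these bulk libraries fewer cells of a type and less RNA per cell cannot be told apart.

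Promoter sequence near the start sites was compared first. RefSeq windows on GRCm38.p6 from 250 bases before to 50 after each start were found for 27 of the 34 genes and searched on both strands for the 10-base p53 consensus element. At least 1 element was in the windows of 10 of the 27 genes (37.0 percent), against 9.6 percent of 27025 genes and 8.4 percent of 32851 windows. No member had a pair of elements within 13 bases. Only 20 of the 27025 genes (0.07 percent) had such a pair, so its absence says nothing particular about the members. Known p53 sites often lie in introns or farther upstream, which these windows do not cover. No window was found for Ddb2, Perp, Rrm2b, Tnfrsf10b, Trp53inp1, Xpc and Zmat3. Of these, Ddb2, Rrm2b, Tnfrsf10b, Trp53inp1 and Xpc were called higher after irradiation in at least 1 line, so the search left out genes that rose. The 10 stretches of 30 bases follow, 5′ to 3′ with the element in capitals, because they hold genes that rose, fell and did not pass the test.
Trp53 (chr11:69580274-69580303, plus strand): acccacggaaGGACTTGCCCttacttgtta
Sesn1 (chr10:41887256-41887285, plus strand): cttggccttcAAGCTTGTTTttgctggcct
Gadd45a (chr6:67037428-67037457, minus strand): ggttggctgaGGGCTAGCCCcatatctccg
Mdm2 (chr10:117710925-117710954, minus strand): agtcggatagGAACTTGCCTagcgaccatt
Ccng1 (chr11:40755452-40755481, minus strand): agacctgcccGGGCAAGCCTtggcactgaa
Polk (chr13:96519399-96519428, minus strand): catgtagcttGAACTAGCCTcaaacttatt
Ppm1d (chr11:85311112-85311141, plus strand): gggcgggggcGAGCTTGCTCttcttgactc
Aen (chr7:78895927-78895956, plus strand): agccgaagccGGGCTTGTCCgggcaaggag
Ei24 (chr9:36797325-36797354, minus strand): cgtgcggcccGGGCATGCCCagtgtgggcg
Rps27l (chr9:66946296-66946325, plus strand): gggcttgttgAGACTTGTCCgggcgacacg
The element starts 75 bases before the start in Trp53, 186 in Mdm2, 185 in Ccng1, 132 in Ppm1d and 10 in Ei24. Trp53 and Sesn1 were higher after irradiation in both lines, Gadd45a was higher in KO, and Ppm1d was lower in KO. Aen, Ei24 and Rps27l were lower in both lines, and Mdm2, Ccng1 and Polk were not called in either. Genes that share the element did not share a direction. Parts of the Gadd45a, Aen and Ei24 stretches lie in annotated exons.

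Which of the genes differed 60 hours after 30 Gy? In WT, 14 of the 33 tested genes rose and 10 fell. Over all tested genes 20.4 percent were called higher and 18.4 percent lower, against 42.4 and 30.3 percent of the members. In KO, 13 rose and 8 fell (39.4 and 24.2 percent, against 21.1 and 18.6 percent of all genes). The median log2 change of the members was 0.13 in WT and 0.04 in KO, beside 0.03 and 0.02 over all tested genes. The list moved in both directions. Trp53inp1, Eda2r and Fas stood at the top, but Fas passed the count filter only through its irradiated libraries. The counts and shares of members called higher include Fas, whose calls are no independent support for a rise. Plk3, Phlda3, Aen, Ei24, Rps27l and Fdxr were called lower in both lines. Mdm2, Ccng1 and Zmat3, which report p53 activity in many tissues, were not called in either. With the replicate number as a block, Zmat3 was called lower in both lines. Each line has its own controls. In WT the irradiated and non-irradiated libraries did not overlap for 17 genes that were higher and 12 that were lower (36.3 and 32.6 percent of all tested genes did so), and in KO for 15 and 12 (36.4 and 32.1 percent). Of the 33, 10 were called higher in both lines (Fas among them), 6 lower in both, 1 in opposite directions, 11 in 1 line only and 5 in neither. Each comparison was repeated without each of its libraries in turn and under other settings: 2 other filters on low counts, RLE or total-count scaling, DESeq2, a fit of only the 2 groups compared, and the replicate number as a block. A call that any of these ended is listed with the adjusted p there. Without single libraries the members called higher numbered 7 to 10 in WT and 4 to 8 in KO, and those called lower 6 to 7 and 3 to 8. The fewest were 7 higher without non-irradiated WT 1, non-irradiated WT 2 or irradiated WT 1, 6 lower without irradiated WT 2, 4 higher without irradiated KO 1 and 3 lower without irradiated KO 2. The higher count in KO was 8 without non-irradiated KO 1, and 7 without non-irradiated KO 2 or irradiated KO 2.

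**Figure D1:**
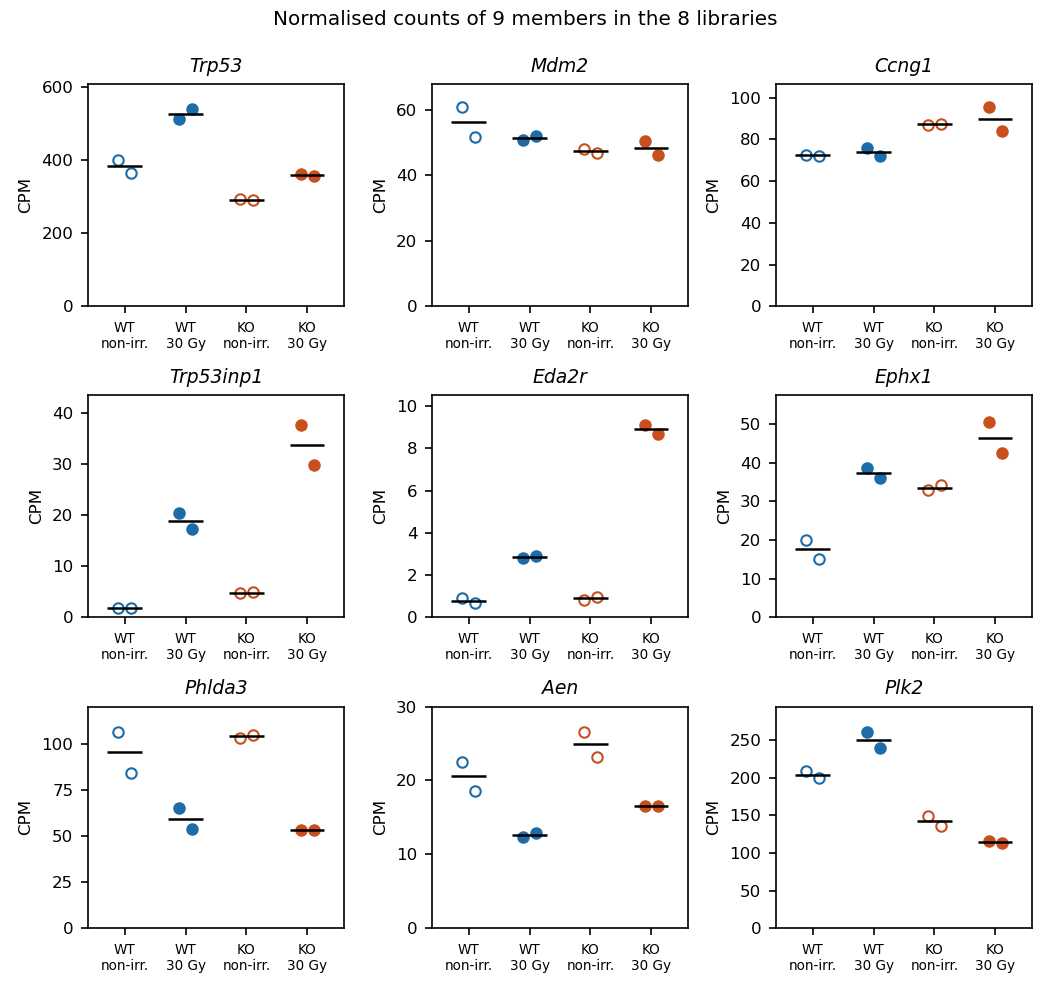
Normalised counts (CPM, y axis from 0) of 9 members in the 4 groups. Each point is 1 library, open for non-irradiated and filled for irradiated, blue for WT and orange for KO, and the bar is the group mean. Trp53inp1 and Eda2r rise several-fold, Mdm2 and Ccng1 have no called change, Phlda3 and Aen fall, and Plk2 moves up in WT and down in KO.

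Trp53 and its controllers. Trp53 (ENSMUSG00000059552, chr11:69580359-69591873) was the most abundant member per length, at 94.7 CPM per kb of exon in non-irradiated WT. It had 402 and 364 CPM in the WT libraries without irradiation and 513 and 540.1 with it, and 293 and 290.3 CPM in KO without and 362 and 357 with it. The irradiated libraries were above the non-irradiated ones of their line without overlap. Trp53 rose by 0.46 ± 0.08 (edgeR adjusted p = 0.00305) on the log2 scale in WT and by 0.30 ± 0.08 (edgeR adjusted p = 0.0186) in KO. Mdm2 (ENSMUSG00000020184, chr10:117688875-117710758), the ligase that marks p53 for degradation, had 60.9 and 51.7 CPM in the WT libraries without irradiation and 50.9 and 51.9 with it, and 48.0 and 46.9 CPM in KO without and 50.5 and 46.3 with it. The groups overlapped in both lines, and the log2 change was -0.13 ± 0.10 (edgeR adjusted p = 0.337) in WT and 0.03 ± 0.10 (edgeR adjusted p = 0.849) in KO. Mdm4, which holds p53 inactive together with Mdm2, went from 118 and 119 to 159 and 151 CPM in WT and from 97.7 and 79.5 to 145 and 121 in KO. It rose by 0.39 ± 0.12 (edgeR adjusted p = 0.0351) and 0.59 ± 0.12 (edgeR adjusted p = 0.00644). Ppm1d, encoding the Wip1 phosphatase that shuts off damage kinases and p53, had 26.8 and 26.2 CPM in the WT libraries without irradiation and 27.9 and 27.7 with it, and 31.6 and 31.2 CPM in KO without and 22.9 and 23.2 with it. It fell in KO, at -0.44 ± 0.08 (edgeR adjusted p = 0.0043), and was at 0.07 ± 0.08 (edgeR adjusted p = 0.549) in WT. The ligase partner's gene rose with Trp53, and neither feedback gene was called higher. Calls that ended elsewhere were, in WT, Mdm4 (0.0832 to 0.154, without any 1 of the 4 libraries), and, in KO, Trp53 (0.0735 to 0.121, without any 1 of the 4 libraries) and Mdm4 (0.062, without irradiated KO 1).

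Cell cycle and growth control. Of 7 genes, 2 rose and 2 fell in WT (28.6 percent each), and 1 rose and 2 fell in KO (14.3 and 28.6 percent). Over all tested genes the shares were 20.4 and 18.4 percent in WT and 21.1 and 18.6 percent in KO. Plk3 (ENSMUSG00000028680, chr4:117128655-117133963), a stress-responsive polo-like kinase, had 10.6 and 11.4 CPM in the WT libraries without irradiation and 5.05 and 5.14 with it, and 9.71 and 9.71 CPM in KO without and 6.24 and 4.51 with it. All irradiated libraries were below all non-irradiated ones. The log2 change was -1.11 ± 0.19 (edgeR adjusted p = 0.00305) in WT and -0.86 ± 0.19 (edgeR adjusted p = 0.00921) in KO. Its relative Plk2 (ENSMUSG00000021701, chr13:110395046-110400844), a kinase with roles in centriole duplication, had 208 and 199.6 CPM in the WT libraries without irradiation and 261 and 239 with it, and 149.6 and 136 CPM in KO without and 116 and 114 with it. The 2 lines parted: the irradiated libraries were the higher ones in WT, at 0.29 ± 0.08 (edgeR adjusted p = 0.0239), and the lower ones in KO, at -0.31 ± 0.08 (edgeR adjusted p = 0.0192). Btg2, an antiproliferative cofactor, went from 2.01 and 1.87 to 4.11 and 3.94 CPM in WT (1.05 ± 0.34 on the log2 scale, edgeR adjusted p = 0.0433) and from 1.19 and 0.617 to 1.25 and 1.03 in KO (0.38 ± 0.39, edgeR adjusted p = 0.482). Gadd45a, which slows entry into mitosis and takes part in repair, had 7.73 and 8.88 CPM in the WT libraries without irradiation and 8.95 and 9.82 with it, and 8.34 and 10.997 CPM in KO without and 14.1 and 14.8 with it. It was called in KO, at 0.57 ± 0.17 (edgeR adjusted p = 0.0317), against 0.18 ± 0.17 (edgeR adjusted p = 0.458) in WT. Ccng1, cyclin G1, one of the steadiest p53 targets across tissues, stayed between 72.2 and 95.5 CPM in all 8 libraries, with changes of 0.03 ± 0.08 (edgeR adjusted p = 0.811) and 0.04 ± 0.08 (edgeR adjusted p = 0.743). Zmat3, a p53-induced RNA-binding protein, went from 43.5 and 43.2 to 35.9 and 38.5 CPM in WT and from 36.5 and 36.2 to 33.1 and 29.7 in KO, lower in all irradiated libraries than in the non-irradiated ones of the same line. Its log2 change was -0.22 ± 0.09 (edgeR adjusted p = 0.0848) in WT, adjusted p = 0.0193 with the replicate number as a block, and -0.21 ± 0.09 (edgeR adjusted p = 0.0973) in KO, adjusted p = 0.0273 with the block. Dyrk3, a kinase that dissolves stress granules, went from 5.36 and 6.27 to 3.54 and 2.74 CPM in WT and from 2.75 and 3.70 to 2.69 and 1.77 in KO. It fell in WT, at -0.89 ± 0.29 (edgeR adjusted p = 0.0433), and was at -0.55 ± 0.30 (edgeR adjusted p = 0.19) in KO. Gadd45a shares 19.1 percent of its exon length with the opposite-strand gene E230016M11Rik, which had no more than 35 reads in any library and a log2 change of -0.96 in WT and -1.47 in KO. Lost under another setting were, in WT, Btg2 (0.052 to 0.149, without any 1 of the 4 libraries, without a count filter, with DESeq2), Plk2 (0.0668 to 0.181, without non-irradiated WT 1, non-irradiated WT 2 or irradiated WT 1, in a fit of the 2 groups alone) and Dyrk3 (0.0541 to 0.196, without any 1 of the 4 libraries, scaled by total counts, with DESeq2). In KO they were Gadd45a (0.0575 to 0.162, without non-irradiated KO 1, irradiated KO 1 or irradiated KO 2, with DESeq2, in a fit of the 2 groups alone), Plk2 (0.0535 to 0.0917, without non-irradiated KO 1, irradiated KO 1 or irradiated KO 2) and Plk3 (0.0548, without irradiated KO 2).

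DNA repair and nucleotide supply. Here 2 of 5 genes rose in WT (40 percent, against 20.4 of all tested genes) and 3 of 5 in KO (60 percent, against 21.1). None fell in either line, where 18.4 and 18.6 percent of all tested genes did, and 5 genes are too few to show a lack of falls. Rrm2b (ENSMUSG00000022292, chr15:37923952-37961318), the p53-induced subunit of ribonucleotide reductase that supplies nucleotides for repair outside S phase, had 32.2 and 28.3 CPM in the WT libraries without irradiation and 41.3 and 40.5 with it, and 33.3 and 31.5 CPM in KO without and 52.9 and 44.3 with it. Its groups did not overlap in either line, with 0.43 ± 0.11 (edgeR adjusted p = 0.0185) and 0.58 ± 0.11 (edgeR adjusted p = 0.00513). Xpc, which recognises bulky lesions for nucleotide excision repair, went from 19.7 and 22.7 to 25.8 and 29.1 CPM in WT and from 27.1 and 25.8 to 33.2 and 35.1 in KO. The changes were 0.37 ± 0.11 (edgeR adjusted p = 0.0296) and 0.37 ± 0.11 (edgeR adjusted p = 0.0297). Ddb2 (ENSMUSG00000002109, chr2:91211572-91236982), which binds ultraviolet lesions in the same pathway, had 3.53 and 4.004 CPM in the WT libraries without irradiation and 6.78 and 3.82 with it, and 3.48 and 3.70 CPM in KO without and 9.79 and 8.45 with it. It rose in KO, at 1.34 ± 0.28 (edgeR adjusted p = 0.00745). In WT irradiated library 2 lay within the non-irradiated range and the change was 0.49 ± 0.28 (edgeR adjusted p = 0.211), or 0.85 without that library (edgeR adjusted p = 0.039). Ddb2 shares 23.8 percent of its exon length with the opposite-strand gene Acp2, whose log2 change was -0.02 in WT and 0.05 in KO. Rrm2b (8.0 percent), Ei24 (6.7), Plk3 and Tigar (3.3 each) also overlap exons of a gene on the other strand, and such reads cannot be told apart without the strand setting. Polk, a translesion polymerase, was at -0.20 ± 0.13 (edgeR adjusted p = 0.272) and -0.08 ± 0.13 (edgeR adjusted p = 0.689), and the repair nuclease Ercc5 at 0.11 ± 0.11 (edgeR adjusted p = 0.478) and -0.05 ± 0.11 (edgeR adjusted p = 0.763). The repair calls lost elsewhere were, in WT, Xpc (0.0775 to 0.165, without non-irradiated WT 1 or irradiated WT 2, with DESeq2, in a fit of the 2 groups alone) and Rrm2b (0.0642 to 0.103, without non-irradiated WT 2, irradiated WT 1 or irradiated WT 2), and, in KO, Xpc (0.0528 to 0.135, without any 1 of the 4 libraries, without a count filter, with DESeq2) and Ddb2 (0.0505, without irradiated KO 1).

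Cell death: genes that rose. The 10 tested genes of this role split evenly in WT, with 5 higher and 5 lower (50 percent each), and in KO 3 were higher and 4 lower (30 and 40 percent). Fas is counted among the higher genes of both lines, though it passed the count filter only through irradiated libraries. All tested genes had 20.4 and 18.4 percent in WT and 21.1 and 18.6 percent in KO. Trp53inp1 (ENSMUSG00000028211, chr4:11156431-11174379), whose product promotes p53 activity, autophagy and apoptosis, had 1.83 and 1.74 CPM in the WT libraries without irradiation and 20.4 and 17.2 with it, and 4.67 and 4.88 CPM in KO without and 37.7 and 29.8 with it. Every irradiated library exceeded every non-irradiated one. It rose by 3.39 ± 0.18 (edgeR adjusted p = 2.2e-05) on the log2 scale in WT and 2.81 ± 0.17 (edgeR adjusted p = 1.77e-05) in KO. Eda2r (ENSMUSG00000034457, chrX:97333840-97377216), a receptor of the TNF receptor family that binds ectodysplasin A2, had 0.913 and 0.667 CPM in the WT libraries without irradiation and 2.81 and 2.91 with it, and 0.824 and 0.976 CPM in KO without and 9.13 and 8.67 with it. Its change was 1.84 ± 0.26 (edgeR adjusted p = 0.00137) in WT and 3.28 ± 0.26 (edgeR adjusted p = 7.42e-05) in KO, on 25 against 90 reads and 28 against 291 reads. Fas (ENSMUSG00000024778, chr19:34290666-34327772), the receptor for the Fas ligand of killer cells, had 4 and 0 reads in WT without irradiation and 27 and 22 with it, and 0 and 0 in KO without and 16 and 15 with it. Irradiated WT was 12.8-fold higher (95 percent exact Clopper-Pearson interval on the split of reads 4.68 to 48.7, counting error only; edgeR adjusted p = 0.0201). Irradiated KO was at least 9.84-fold higher than the 3 reads over the group that 0 reads allow (edgeR adjusted p = 0.0118). Fas passed the count filter only through the irradiated libraries, where it was high, so its 2 calls are no independent support for a rise. The fitted log2 change of Fas in WT, 3.58, was 7.65 without non-irradiated WT 1 and 2.67 without non-irradiated WT 2. Tnfrsf10b, the mouse receptor for TRAIL, went from 34.5 and 30.6 to 48.4 and 37.5 CPM in WT and from 33.9 and 31.9 to 33.6 and 33.8 in KO. It was called in WT, at 0.40 ± 0.13 (edgeR adjusted p = 0.0445), against 0.04 ± 0.13 (edgeR adjusted p = 0.852) in KO. Apaf1, the scaffold of the apoptosome, went from 15.7 and 16.6 to 26.6 and 21.7 CPM in WT and from 23.5 and 17.9 to 25.6 and 26.1 in KO. It rose in WT, at 0.57 ± 0.16 (edgeR adjusted p = 0.0218), and was at 0.33 ± 0.15 (edgeR adjusted p = 0.132) in KO, adjusted p = 0.00597 with the block. Of these genes, the calls lost elsewhere were, in WT, Fas (0.0793, without irradiated WT 1), Tnfrsf10b (0.0517 to 0.325, without non-irradiated WT 1, non-irradiated WT 2 or irradiated WT 1, with the 1 CPM filter, with DESeq2, in a fit of the 2 groups alone) and Apaf1 (0.0657 to 0.147, without non-irradiated WT 1, non-irradiated WT 2 or irradiated WT 1), and in KO, Fas (0.0582, without non-irradiated KO 2).

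Cell death: genes that fell. Phlda3 (ENSMUSG00000041801, chr1:135766119-135769136), which restrains Akt at the membrane and is usually induced by p53, had 107 and 84.4 CPM in the WT libraries without irradiation and 65.2 and 53.8 with it, and 103 and 105 CPM in KO without and 53.6 and 53.6 with it. Its irradiated libraries were all below the non-irradiated ones. The log2 change was -0.69 ± 0.13 (edgeR adjusted p = 0.00516) in WT and -0.96 ± 0.13 (edgeR adjusted p = 0.00107) in KO. Aen (ENSMUSG00000030609, chr7:78895854-78911209), an apoptosis-enhancing nuclease, had 22.5 and 18.6 CPM in the WT libraries without irradiation and 12.4 and 12.8 with it, and 26.6 and 23.2 CPM in KO without and 16.6 and 16.5 with it. Its groups were apart in both lines, with -0.70 ± 0.13 (edgeR adjusted p = 0.00454) and -0.59 ± 0.13 (edgeR adjusted p = 0.00878). Ei24, a protein of the endoplasmic reticulum linked to autophagy, went from 45.7 and 41.6 to 31.5 and 26.0 CPM in WT and from 47.5 and 46.1 to 34.2 and 32.2 in KO. It fell in both lines, at -0.61 ± 0.11 (edgeR adjusted p = 0.00432) and -0.50 ± 0.11 (edgeR adjusted p = 0.00964). Rps27l, a ribosomal protein paralog induced by p53, went from 58.04 and 50.1 to 38.9 and 30.5 CPM and from 56.5 and 50.7 to 38.6 and 34.3, at -0.64 ± 0.14 (edgeR adjusted p = 0.00919) and -0.55 ± 0.14 (edgeR adjusted p = 0.0166). Reads of Rps27l may be shared with its close copy Rps27, so its value is uncertain. The log2 change of Rps27 itself was 0.22 in WT and 0.15 in KO. Pidd1, which assembles the PIDDosome with caspase-2, went from 7.13 and 11.7 to 5.99 and 4.85 CPM in WT and from 7.51 and 8.79 to 6.44 and 6.51 in KO. It fell in WT, at -0.80 ± 0.26 (edgeR adjusted p = 0.0408), and was at -0.34 ± 0.26 (edgeR adjusted p = 0.337) in KO. Perp, a desmosomal p53 effector, had 0 reads in 6 libraries and 1 in each of the others (irradiated WT 1 and irradiated KO 2), under the filter, and no fold is given. Among the falls, calls lost elsewhere were, in WT, Pidd1 (0.0512 to 0.24, without non-irradiated WT 2, irradiated WT 1 or irradiated WT 2, scaled by total counts, with DESeq2, in a fit of the 2 groups alone) and Rps27l (0.0532 to 0.0587, without non-irradiated WT 1 or irradiated WT 2), and in KO, Ei24 (0.0622, without irradiated KO 2) and Rps27l (0.0808 to 0.0965, without non-irradiated KO 1 or irradiated KO 2).

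Stress metabolism, redox and membrane. Of 7 genes, 3 rose and 3 fell in WT (42.9 percent each), and 4 rose and 1 fell in KO (57.1 and 14.3 percent). The shares of all tested genes were 20.4 and 18.4 percent in WT and 21.1 and 18.6 percent in KO. Ephx1 (ENSMUSG00000038776, chr1:180976210-181020904), microsomal epoxide hydrolase, had 20.1 and 15.2 CPM in the WT libraries without irradiation and 38.6 and 36.2 with it, and 32.9 and 34.2 CPM in KO without and 50.5 and 42.5 with it. Its groups were apart in both lines. It rose by 1.08 ± 0.15 (edgeR adjusted p = 0.00109) in WT and 0.47 ± 0.14 (edgeR adjusted p = 0.0323) in KO. The sestrins, which damp mTORC1 signalling under stress, went different ways. Sesn1 (ENSMUSG00000038332, chr10:41809935-41908424) had 26.1 and 23.2 CPM in the WT libraries without irradiation and 37.5 and 38.1 with it, and 27.9 and 23.1 CPM in KO without and 34.5 and 30.7 with it. It rose by 0.61 ± 0.12 (edgeR adjusted p = 0.00585) and 0.36 ± 0.12 (edgeR adjusted p = 0.0482). Sesn2 (ENSMUSG00000028893, chr4:132492032-132510501), also a target of the amino acid stress factor Atf4, had 19.7 and 18.2 CPM in the WT libraries without irradiation and 9.89 and 12.5 with it, and 16.0 and 14.7 CPM in KO without and 16.7 and 18.8 with it. It fell in WT, at -0.76 ± 0.15 (edgeR adjusted p = 0.00582), and was at 0.21 ± 0.15 (edgeR adjusted p = 0.293) in KO. Fdxr, a mitochondrial reductase that feeds electrons to steroid and iron-sulfur cluster synthesis, went from 21.2 and 25.8 to 13.5 and 14.7 CPM in WT and from 16.6 and 16.96 to 11.3 and 9.02 in KO. It fell in both lines, at -0.73 ± 0.15 (edgeR adjusted p = 0.00738) and -0.73 ± 0.16 (edgeR adjusted p = 0.00825). Tigar, a phosphatase that lowers glycolysis, went from 21.6 and 19.2 to 15.4 and 16.7 CPM in WT and from 24.5 and 23.4 to 22.0 and 24.5 in KO. It fell in WT, at -0.34 ± 0.11 (edgeR adjusted p = 0.0446), and was at -0.04 ± 0.11 (edgeR adjusted p = 0.825) in KO. Dcxr, a dicarbonyl and xylulose reductase, rose on low counts, from 2.01 and 2.002 to 3.54 and 4.28 CPM in WT (0.96 ± 0.25, edgeR adjusted p = 0.0192) and from 2.20 and 3.03 to 4.93 and 4.85 in KO (0.89 ± 0.25, edgeR adjusted p = 0.0241). The tetraspanin gene Cd82, known as a metastasis suppressor, went from 70.9 and 72.2 to 79.3 and 77.1 CPM in WT and from 73.1 and 66.4 to 87.7 and 87.9 in KO. It rose in KO, at 0.33 ± 0.07 (edgeR adjusted p = 0.0102), and was at 0.13 ± 0.07 (edgeR adjusted p = 0.22) in WT. In this role, calls lost elsewhere were, in WT, Tigar (0.0559 to 0.219, without any 1 of the 4 libraries, without a count filter, scaled by total counts, with DESeq2, in a fit of the 2 groups alone) and Dcxr (0.0681 to 0.106, without non-irradiated WT 1, non-irradiated WT 2 or irradiated WT 2, with DESeq2). In KO they were Sesn1 (0.0506 to 0.304, without non-irradiated KO 2, irradiated KO 1 or irradiated KO 2, without a count filter, with the 1 CPM filter, with RLE factors, with DESeq2, in a fit of the 2 groups alone), Fdxr (0.0551, without irradiated KO 2), Dcxr (0.0536 to 0.117, without non-irradiated KO 1, irradiated KO 1 or irradiated KO 2, without a count filter, with DESeq2), Ephx1 (0.0986 to 0.23, without non-irradiated KO 1, non-irradiated KO 2 or irradiated KO 1) and Cd82 (0.0509 to 0.083, without non-irradiated KO 2, irradiated KO 1 or irradiated KO 2).

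**Figure D2:**
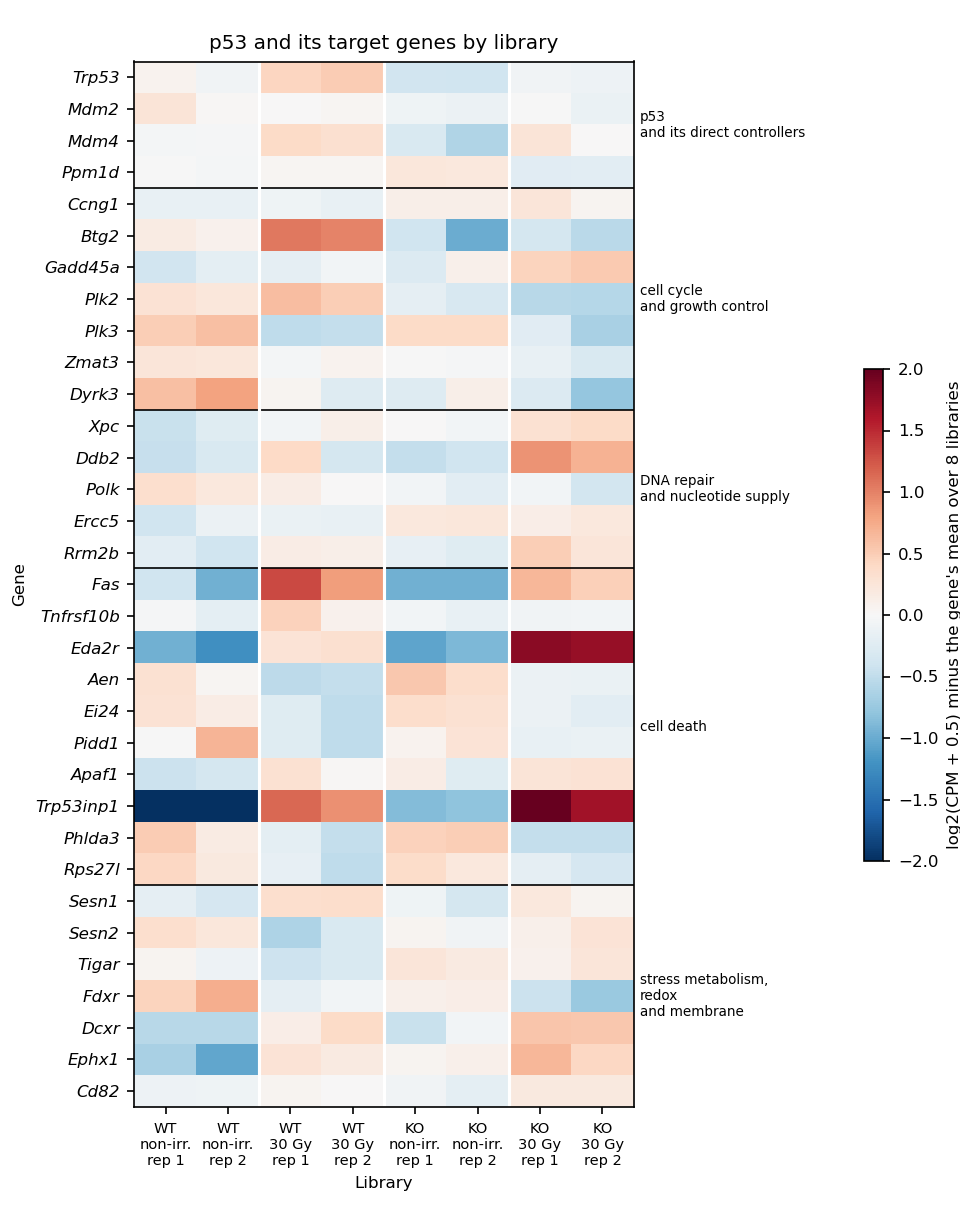
Level of the 33 tested genes (rows, by role) in the 8 libraries (columns), as log2(CPM + 0.5) minus the gene's mean over the libraries, with colours saturated at 2 either way. With irradiation Trp53inp1 changes from blue to red in both lines, and Eda2r from blue to pale in WT and to red in KO. Plk3, Aen, Ei24, Phlda3 and Rps27l change from red towards blue, and Mdm2, Ccng1 and Zmat3 stay pale.

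**Figure D3:**
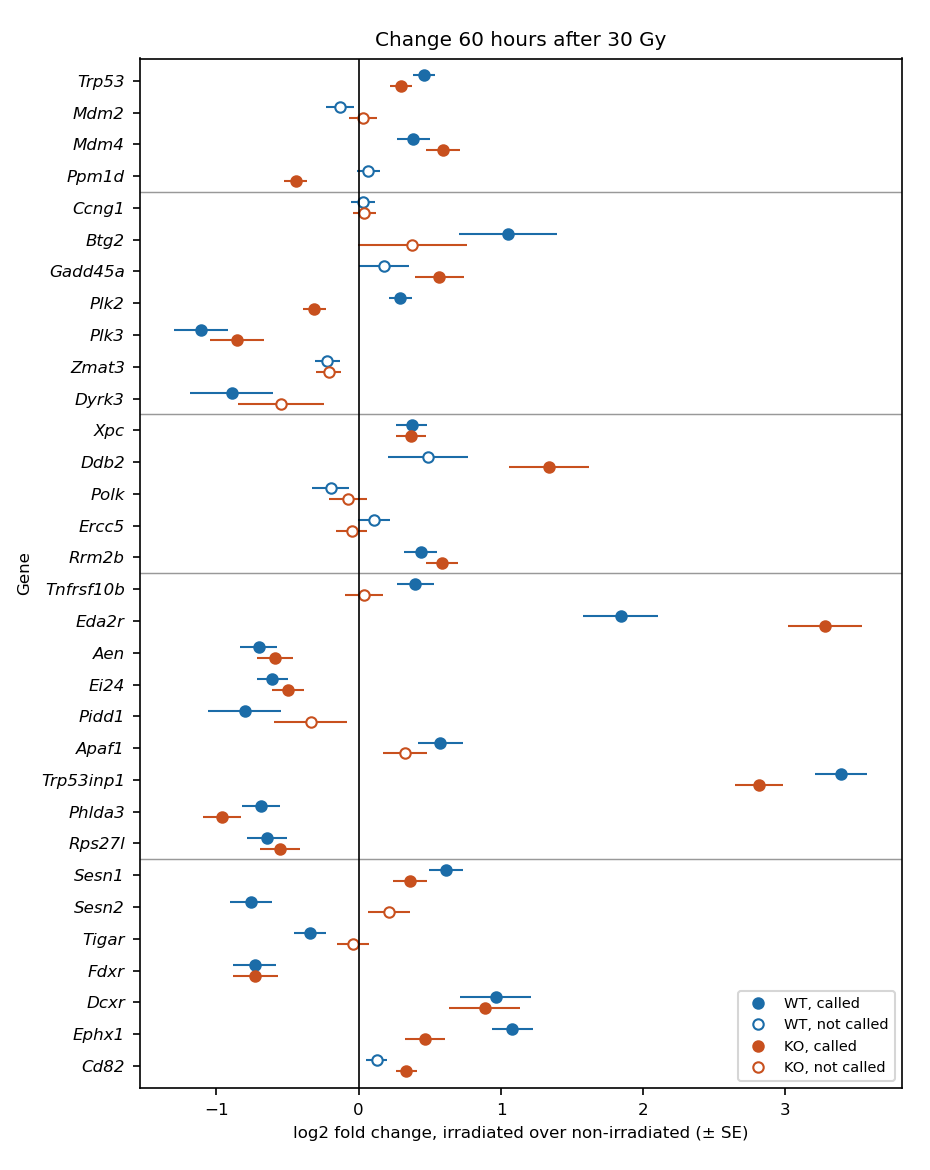
log2 change with its SE (x axis) after 30 Gy for 32 genes (rows, by role), blue for WT and orange for KO, filled where called. Fas is left out because its KO change is against 0 reads. Trp53inp1 (3.39 in WT, 2.81 in KO) and Eda2r (1.84, 3.28) lie far right, Plk3, Aen, Ei24, Phlda3, Rps27l and Fdxr lie left of 0 in both lines, and Plk2 is called on opposite sides.

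Other p53 targets, outside the 34. Of 43 further genes in a fixed list, 41 were in the table and 39 tested, and 12 were higher and 7 lower in WT, 15 and 7 in KO (30.8 and 17.9 percent in WT, 38.5 and 17.9 in KO). All tested genes had 20.4 and 18.4 percent in WT and 21.1 and 18.6 percent in KO, so the share called lower was near the background in both lines. Cdkn1a, the cyclin-dependent kinase inhibitor p21, had 96.3 and 87.8 CPM in the WT libraries without irradiation and 101 and 101 with it, and 174 and 164 CPM in KO without and 234 and 226 with it. Its log2 change was 0.14 ± 0.08 (edgeR adjusted p = 0.194) in WT, adjusted p = 0.0158 with the block, and 0.44 ± 0.07 (edgeR adjusted p = 0.00289) in KO. The apoptosis effector Bax fell, at -0.49 ± 0.10 (edgeR adjusted p = 0.00632) and -0.42 ± 0.10 (edgeR adjusted p = 0.0114). The BH3-only gene Bbc3, Puma, was at -0.02 ± 0.14 (edgeR adjusted p = 0.934) and -0.23 ± 0.14 (edgeR adjusted p = 0.238). Pmaip1, Noxa, rose by 1.998 ± 0.27 (edgeR adjusted p = 0.00104) and 1.84 ± 0.49 (edgeR adjusted p = 0.0198). Its rise in KO rests on few reads, with 3 and 4 without and 9 and 19 with irradiation. Trp53inp2, the paralog of Trp53inp1, rose by 2.21 ± 0.11 and 1.44 ± 0.10 (edgeR adjusted p = 1.69e-05 and 5.06e-05). Ypel3 rose by 1.41 ± 0.16 in WT and 0.88 ± 0.15 in KO. Gadd45b rose by 1.18 ± 0.16 in WT and 1.74 ± 0.17 in KO. Epha2, an ephrin receptor, was at -1.99 ± 0.09 and -1.999 ± 0.09, and the thiamine transporter gene Slc19a2 at -0.64 ± 0.18 and -0.55 ± 0.18. Sertad1 fell in both lines too, at -0.53 ± 0.10 in WT and -0.33 ± 0.10 in KO.

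Regulators and the repressed arm. Of 36 tested regulators and partners of p53, 10 were higher and 8 lower in WT and 6 higher and 13 lower in KO (27.8 and 22.2 percent, against 20.4 and 18.4 percent of all tested genes, and 16.7 and 36.1 percent, against 21.1 and 18.6). The largest rises in WT were Trp63, a p53 family member, at 2.23 ± 0.50, the p53 cofactor Ppp1r13b at 1.18 ± 0.18 and Trim24, a p53 ligase, at 1.13 ± 0.07. In KO they were Daxx at 2.99 ± 0.09, Trp63 at 2.08 ± 0.60 and Pml at 1.85 ± 0.12. Trp63 rests on few reads in KO, with 1 and 9 without and 19 and 25 with irradiation. Daxx and Pml are nuclear body genes that interferon also induces. Both also rose in WT, Daxx by 0.64 ± 0.08 and Pml by 0.495 ± 0.11. Ppp1r13b also rose in KO, by 0.70 ± 0.17, and Trim24 in KO was at 0.17 ± 0.07 (edgeR adjusted p = 0.105). The arginine methyltransferase Carm1 fell in both lines (-1.04 ± 0.12 and -1.14 ± 0.13), as did Usp7, the deubiquitinase of Mdm2 and p53 (-0.68 ± 0.08 and -0.74 ± 0.08). Prmt5, another arginine methyltransferase, fell in both lines as well (-0.65 ± 0.07 in WT and -0.74 ± 0.07 in KO). So did the nucleolar gene Npm1 (-0.54 ± 0.09 in WT and -0.86 ± 0.09 in KO). p53 also lowers cell cycle genes through p21 and the DREAM repressor. Of 30 such genes, 13 were higher and 2 lower in WT (43.3 and 6.67 percent, against 20.4 and 18.4 of all tested genes), and 11 higher and 4 lower in KO (36.7 and 13.3 percent, against 21.1 and 18.6). The largest rises in both lines were the mitotic genes Kif20a (1.45 ± 0.11 and 1.12 ± 0.11), Aurka (0.91 ± 0.09 and 0.93 ± 0.09) and Ccnb2 (0.89 ± 0.07 and 0.86 ± 0.07). The nucleotide synthesis genes Tk1 (-1.36 ± 0.07 and -1.69 ± 0.07) and Rrm2 (-0.85 ± 0.08 and -0.999 ± 0.08) fell in both lines, and the mitotic kinesin Kif23 was at -0.30 ± 0.10 in KO. Apart from Trim24 in KO, all changes given here passed the edgeR test. The block moved the regulators called lower in WT from 8 to 16 and the higher ones from 10 to 15 in WT and 6 to 10 in KO, and the DREAM genes from 13 and 2 to 20 and 5 in WT and from 4 to 10 lower in KO. Over all tested genes the block called 30.6 percent higher and 29.9 percent lower in WT and 30.6 and 29.6 percent in KO.

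**Figure D4:**
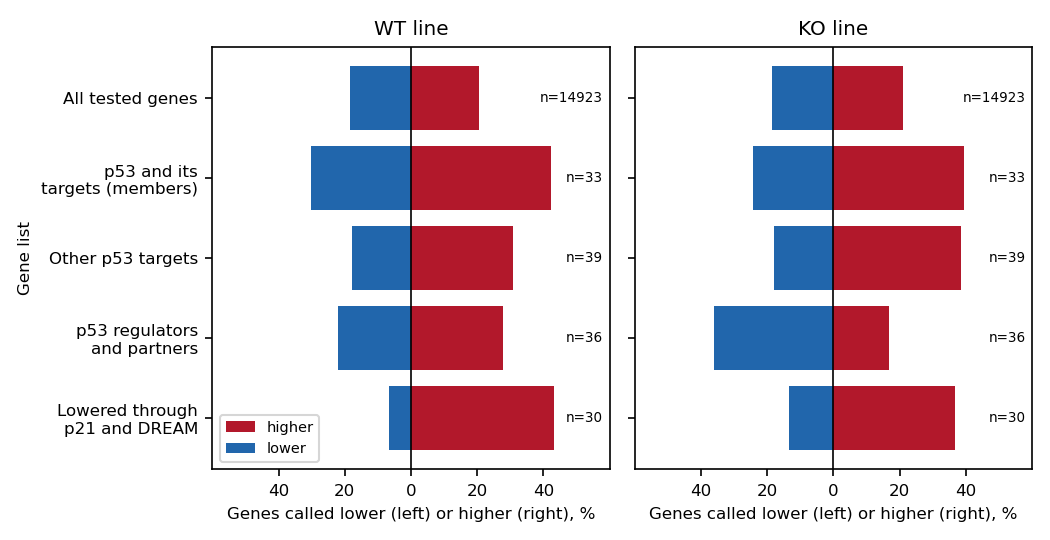
Share of tested genes called higher (red, right) or lower (blue, left) after irradiation, in percent, for all tested genes and 4 gene lists, in WT and KO, with the number tested at the right. Members, with Fas counted, were called in both directions (42.4 and 30.3 percent in WT, 39.4 and 24.2 in KO). Of the genes lowered through p21 and DREAM 43.3 percent were called higher and 6.67 percent lower in WT, and 36.7 and 13.3 percent in KO.

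Did the lines differ before irradiation? Without irradiation 3 members were higher and 3 lower in KO than in WT (9.09 percent each, against 10.4 percent higher and 9.49 percent lower of all tested genes). Trp53 was lower, at -0.39 ± 0.08 (edgeR adjusted p = 0.0118), Mdm4 at -0.42 ± 0.12 (edgeR adjusted p = 0.0452) and Plk2 at -0.52 ± 0.08 (edgeR adjusted p = 0.00465). Trp53inp1 was higher, at 1.42 ± 0.20 (edgeR adjusted p = 0.0026), Ephx1 at 0.93 ± 0.15 (edgeR adjusted p = 0.00478) and Ercc5 at 0.48 ± 0.11 (edgeR adjusted p = 0.0213). With the block 8 were higher and 10 lower (21.4 and 23.5 percent of all genes). The 12 genes it added were Ppm1d (edgeR adjusted p = 0.0738, 0.0265 with the block), Ccng1 (0.0575, 0.000114), Xpc (0.0828, 0.00961), Aen (0.177, 0.036) and Apaf1 (0.165, 0.0183), which were higher, and Mdm2 (0.125, 0.00565), Btg2 (0.0705, 0.016), Zmat3 (0.0853, 0.0101), Dyrk3 (0.0841, 0.00569), Polk (0.0658, 0.00024), Sesn2 (0.191, 0.029) and Fdxr (0.0607, 0.000736), which were lower. Outside the members, Cdkn1a was higher in KO (0.88 ± 0.08, edgeR adjusted p = 0.000369), and Pmaip1 was lower, with 3 and 4 reads against 116 and 74 (-4.65 ± 0.40, edgeR adjusted p = 0.000367). Without single libraries 2 to 3 were higher and 1 to 3 lower. Calls lost elsewhere were Trp53 (0.0538 to 0.0747, without non-irradiated WT 1, non-irradiated KO 1 or non-irradiated KO 2, in a fit of the 2 groups alone), Mdm4 (0.0563 to 0.209, without non-irradiated WT 1, non-irradiated WT 2 or non-irradiated KO 2, with the 1 CPM filter, scaled by total counts, in a fit of the 2 groups alone) and Ercc5 (0.066 to 0.103, without non-irradiated WT 1, non-irradiated KO 1 or non-irradiated KO 2, in a fit of the 2 groups alone). Btg2 was called without non-irradiated KO 1 (-1.64, edgeR adjusted p = 0.0489).

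Whole chromosomes differed between the lines. The median KO minus WT log2 difference over tested genes was 0.37 on chromosome 7, 0.38 on chromosome 18 and -0.32 on chromosome 16 without irradiation, and 0.38, 0.40 and -0.36 after it, while all other chromosomes lay between -0.16 and 0.10 in both. Aen and Pidd1 lie on chromosome 7, with differences of 0.27 ± 0.13 and -0.20 ± 0.25 without irradiation and 0.39 ± 0.13 and 0.26 ± 0.26 after it. No member lies on chromosomes 16 or 18. Around Trp53, on chromosome 11, 132 tested genes within 5 Mb had a median difference of -0.13 without irradiation and -0.10 after it. Around Plk2, 35 genes had -0.12 in both states. Larger shifts lay around Gadd45a (28 genes, 0.383 without irradiation and 0.205 after it) and Sesn2 (145 genes, 0.196 and 0.266). Both genes were called higher in KO after irradiation. Around the other members called between the lines the medians lay between -0.185 and 0.053, both around Tigar. The part of such regional shifts in the differences was not tested.

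After irradiation 6 members were higher and 4 lower in KO than in WT (18.2 and 12.1 percent, against 13.3 and 11.4 percent of all tested genes). Plk2 was lower at -1.12 ± 0.08 (edgeR adjusted p = 9.59e-05), with 116 and 114 CPM against 261 and 239, Btg2 at -1.82 ± 0.36 (edgeR adjusted p = 0.00883), Trp53 at -0.55 ± 0.08 (edgeR adjusted p = 0.0021) and Ppm1d at -0.27 ± 0.08 (edgeR adjusted p = 0.0497). Eda2r was higher at 1.63 ± 0.23 (edgeR adjusted p = 0.00209), with 9.13 and 8.67 CPM against 2.81 and 2.91, and Trp53inp1 at 0.84 ± 0.15 (edgeR adjusted p = 0.00581). Sesn2 (0.66 ± 0.15, edgeR adjusted p = 0.0152), Gadd45a (0.62 ± 0.17, edgeR adjusted p = 0.0339), Tigar (0.54 ± 0.11, edgeR adjusted p = 0.0118) and Ccng1 (0.28 ± 0.08, edgeR adjusted p = 0.0435) were higher as well. Cdkn1a was also higher (1.18 ± 0.08, edgeR adjusted p = 5.13e-05) and Pmaip1 lower (-4.81 ± 0.33, edgeR adjusted p = 6.53e-05). The DREAM list was lower in KO for 12 of 30 genes without irradiation and for 17 of 30 after it (40 and 56.7 percent). In each state 2 were higher (6.67 percent). Of 36 regulators, 5 and 13 were lower (13.9 and 36.1 percent) and 2 and 4 higher (5.56 and 11.1 percent). Over all tested genes 9.49 and 11.4 percent were lower and 10.4 and 13.3 percent higher. Of the 39 other targets, 7 were higher and 8 lower in KO without irradiation (17.9 and 20.5 percent), and 6 and 6 after it (15.4 percent each). The shares after irradiation were near those of all tested genes. The block raised the DREAM genes called lower to 21 and 20 and those higher to 5 and 6, the regulators called lower to 16 and 21 and those higher to 7 and 8, and the other targets to 11 higher and 15 lower without irradiation and 15 and 11 after it. Over all tested genes it called 21.4 percent higher and 23.5 percent lower without irradiation, and 25.2 percent each way after it. With the block 14 members were higher and 10 lower (25.2 percent of all genes each way). The added genes were Xpc (edgeR adjusted p = 0.0715, 0.00393 with the block), Ddb2 (0.0738, 0.000416), Ercc5 (0.0725, 0.00373), Rrm2b (0.149, 0.00937), Aen (0.0676, 0.00684), Ei24 (0.218, 0.0337), Ephx1 (0.149, 0.00252) and Cd82 (0.149, 0.0111), higher, and Mdm4 (0.236, 0.000546), Zmat3 (0.0837, 0.0114), Polk (0.153, 0.00568), Tnfrsf10b (0.0938, 0.00112), Sesn1 (0.242, 0.0341) and Fdxr (0.0612, 0.00263), lower. Without single libraries 3 to 4 were higher and 2 to 4 lower. Calls lost elsewhere were Ppm1d (0.106 to 0.248, without any 1 of the 4 libraries, without a count filter, with DESeq2, in a fit of the 2 groups alone), Ccng1 (0.0525 to 0.295, without irradiated WT 1, irradiated WT 2 or irradiated KO 1, without a count filter, with the 1 CPM filter, scaled by total counts, with DESeq2, in a fit of the 2 groups alone), Btg2 (0.0631, without irradiated KO 2), Gadd45a (0.0713 to 0.145, without any 1 of the 4 libraries, with DESeq2), Trp53inp1 (0.0573, without irradiated KO 1), Sesn2 (0.0912 to 0.0913, without irradiated WT 1 or irradiated KO 2) and Tigar (0.0797 to 0.0806, without irradiated WT 1 or irradiated KO 2). Ddb2 was called without irradiated WT 1 (1.26, edgeR adjusted p = 0.0202) and Tnfrsf10b without irradiated WT 2 (-0.52, 0.0318). The irradiated libraries here are the same as in the irradiation effects of each line, so the 2 views are not independent.

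**Figure D5:**
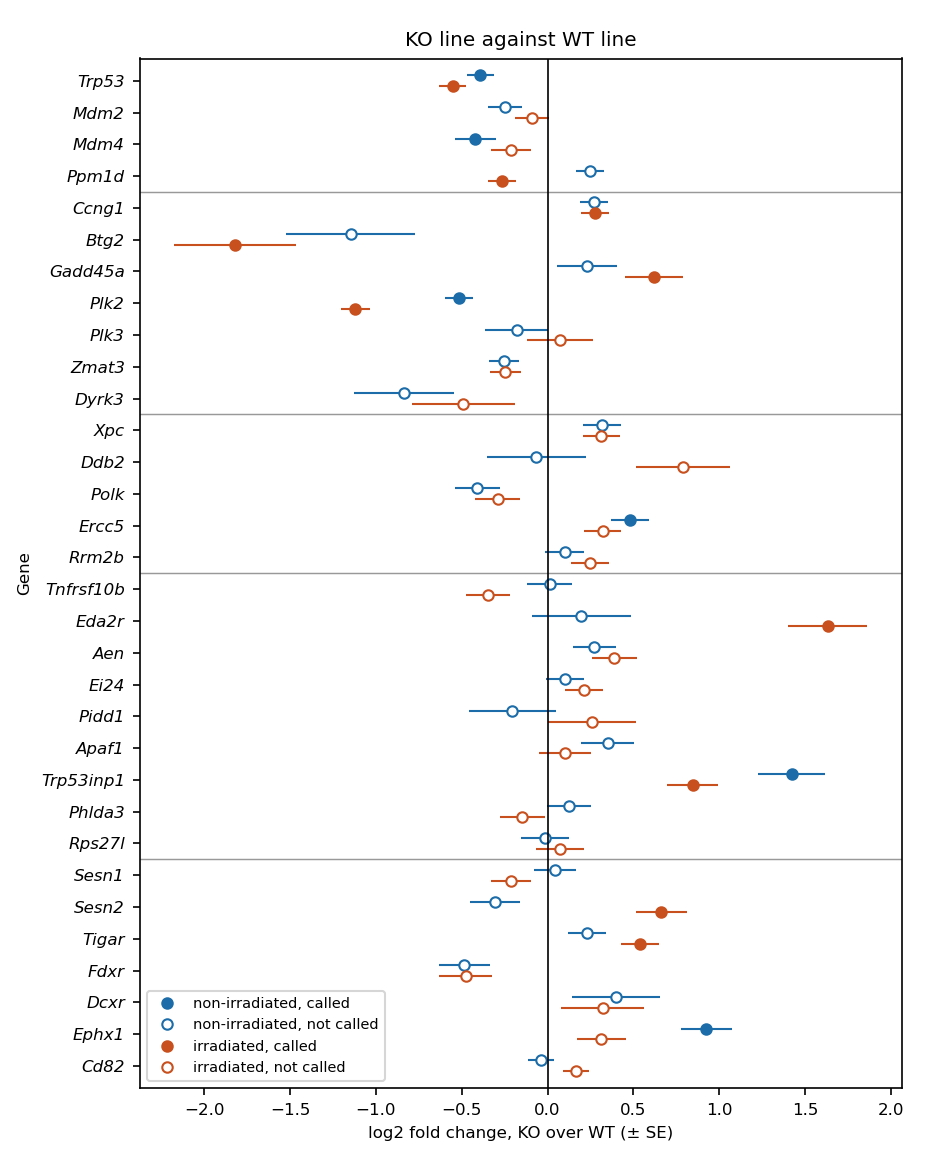
log2 difference KO over WT with its SE (x axis) for 32 genes (rows, by role), blue without and orange after irradiation, filled where called. Fas is left out. Trp53 and Plk2 lie left of 0 and Trp53inp1 right of 0 in both states, Btg2 at -1.82 is lowest after irradiation, and Eda2r moves from 0.20 to 1.63.

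Was the response itself different between the lines? The interaction, which takes the WT change from the KO change, was called for 1 of 33 members, Plk2 at -0.60 ± 0.12 (edgeR adjusted p = 0.0475), and 1.37 percent of all tested genes were called higher and 0.57 percent lower. The Plk2 call ended without any 1 of the 8 libraries and with the 1 CPM filter (edgeR adjusted p = 0.0525 to 0.206). The next members were Sesn2 at 0.97 ± 0.21 (edgeR adjusted p = 0.0736) and Ppm1d at -0.51 ± 0.12 (edgeR adjusted p = 0.0863). With the block 2 members were called higher and 5 lower (8.15 and 8.55 percent of all genes): Sesn2 (4.84e-05) and Eda2r (1.44 ± 0.37, 0.131, 0.0402 with the block), and Plk2 (1.28e-09), Ppm1d (0.004), Ephx1 (-0.61 ± 0.20, 0.25, 0.000411 with the block), Tnfrsf10b (-0.36 ± 0.18, 0.503, 0.0415 with the block) and Phlda3 (-0.27 ± 0.18, 0.648, 0.0368 with the block). The other members called in a single line were not shown to differ between the lines. Outside the members, the interaction was called higher for 2 and lower for 1 of 36 regulators (5.56 and 2.78 percent). It was called higher for 1 of 30 DREAM genes (3.33 percent) and for 0 of the 39 other targets. With the block, 4 regulators were higher and 9 lower, 1 and 10 DREAM genes, and 8 and 8 other targets.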

How the data were processed

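RNA from the 8 MC38 libraries was sequenced in bulk. The deposited values are whole-number counts of reads per Ensembl gene (29079 genes, 8 columns, all used). The authors' steps are known only in part: the submitters' processing notes name HISAT2, HISAT, HTSeq, DESeq2 and the mm10 build. For the strand setting and the annotation release, the sources used here say nothing. The genes and lists were chosen with earlier results of these data known.

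Symbols and coordinates came from GENCODE M21 on GRCm38, and 28880 of 29079 IDs had a symbol. Genes were kept by edgeR's filterByExpr (10 counts, 15 in total), which left 14923 genes and 99.86 to 99.93 percent of counts. TMM factors ran from 0.975 to 1.024. The edgeR 4.0.16 quasi-likelihood F test (R 4.3.3) was fitted to all 8 libraries with a coefficient for each of the 4 groups (residual degrees of freedom 4), two-sided, with Benjamini-Hochberg adjustment over all tested genes and a threshold of 0.05. CPM uses TMM-scaled library sizes, and CPM per kb divides by the summed exon length. DESeq2 1.42.0 was an alternative. The scripts were tested on simulated data.

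The labels number the libraries 1 and 2 in every group without saying what the number marks. Same-numbered libraries deviated together in all 6 pairs of groups (r = 0.564 to 0.611), so the numbers were taken to pair them, and the value with the replicate number as a block is printed where it changes a call. Because the spread is estimated from 2 libraries in each group, small differences can be missed.

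All 34 genes are reported. From the other lists, Cdkn1a, Bax, Bbc3 and Pmaip1 are named, and in each list the 3 largest rises and 3 largest falls among called genes in each line, except 1 gene that is not reported here. Counting intervals and the limit of 3 reads for a count of 0 cover counting error only.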

Additional observations from a re-analysis of the deposited data

Results flagged for a closer look

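Plk2 was singled out because its irradiation effect differed between the lines by the test of the difference itself. The change in KO less that in WT was -0.603 on the log2 scale (edgeR adjusted p = 0.0475), with a change of 0.29 in WT and -0.31 in KO. Both irradiated WT libraries were above both non-irradiated ones, and both irradiated KO libraries were below theirs. The adjusted p was 0.085 to 0.206 without any 1 library and 1.28e-09 with the replicate block.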

How the results depend on the processing

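No called member changed direction under any setting that was run. Of 62 calls of members over the 5 comparisons, 23 held in every setting: 11 of 24 for irradiation in WT, 6 of 21 in KO, 3 of 6 and 3 of 10 for KO against WT without and after irradiation, and 0 of 1 for the interaction. Leaving out 1 library at a time gave 7 to 10 members higher and 6 to 7 lower for irradiation in WT, 4 to 8 and 3 to 8 in KO, 1 to 3 lower for KO against WT without irradiation, 3 to 4 higher and 2 to 4 lower after it, and 0 for the interaction. These fits leave 1 library in a group, which is assumed to vary like the others. The cause of each shift was not tested. For KO against WT without irradiation, members called lower numbered 5 without a count filter and 1 in a fit of the 2 groups alone. For the interaction, 1 member was higher and 2 were lower without a count filter, and 0 were lower with the filter of 1 CPM. With the replicate block, 8 were higher and 10 lower for KO against WT without irradiation, 14 and 10 after it, and 2 and 5 for the interaction. In the block fits 35 member calls were gained and 0 lost, all named beside the results, and the block changed no other member's call. The median log2 change of all genes was 0.088 in WT and 0.055 in KO with total-count scaling, against 0.028 and 0.018 with TMM. Fas, Eda2r and Btg2 rest on few reads, Trp63 and Pmaip1 do so in KO, and Perp was below the filter.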
